A study of Brassica napus with 14 samples.

Results

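Tocopherols, the compounds of vitamin E, are made in plastids by a short pathway that was followed here, copy by copy, through the seed development of Brassica napus (oilseed rape, an allotetraploid with an A and a C subgenome). The members were the rows of the deposited expression table whose Arabidopsis identifier is 1 of 7 loci, namely HPPD (AT1G06570), VTE5 (AT5G04490), VTE6 (AT1G78620), VTE2 (AT2G18950), VTE3 (AT3G63410), VTE1 (AT4G32770) and VTE4 (AT1G64970). This gave 19 of the 96219 genes in the table. HPPD and VTE5 had 3 copies each, VTE6 and VTE1 had 2, VTE2 and VTE4 had 4 and VTE3 had 1, against a median of 3 copies over the 21491 Arabidopsis loci in the table. Of the 19 copies, 9 lie on A chromosomes and 10 on C chromosomes.

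The enzymes are known from Arabidopsis. A tocopherol has a head group, which derives from tyrosine through homogentisate, and a tail made from phytyl diphosphate, a product of phytol released from chlorophyll or of new isoprenoid synthesis. The head and the tail are joined, methylated, closed into a ring and methylated again, and the product protects membrane and storage lipids from oxidation, a role for which it is best known in oil-rich seeds. Homogentisate and the methylation by VTE3 also serve the synthesis of plastoquinone, an electron carrier of photosynthesis.

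Polyadenylated RNA of the cultivar DH12075 was sequenced from whole ovules on the day of pollination (OV, day 0) and from whole seeds of 4 later stages, which are GLOB (day 7 after fertilization), HEART (day 10), MG (day 28) and DS (day 35). The plants were hand-pollinated and grew in chambers under long days at 22°C, and the labels name no treatment of them. There were 14 libraries, 2 of DS and 3 of each of the other stages. The authors' table holds 1 value per gene and stage, in FPKM, a count of fragments scaled by transcript length and by the mapped fragments of a library. The spread between libraries is therefore unknown for every value below, the depth is unknown, and no difference could be tested. Differences between stages are given on the log2(FPKM + 1) scale, which understates the change of low genes, and a copy or locus is called higher or lower where it differs by at least 1 on that scale.

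The labelled tissues were set against marker genes, with FPKM summed over copies. INO, a regulator of the outer integument, had 54.9 at OV, 57.7 at GLOB, 20.6 at HEART and 0.0902 at MG, and was listed at 0 in DS. The other ovule genes were likewise not highest in OV, STK standing at 801 in GLOB against 187 in OV and BEL1 at 7.51 in HEART against 3.79 in OV. The embryo regulator LEC1 was at 65.7 in HEART and at most 0.677 in the other stages. The seed coat gene BAN was between 106 and 248 from GLOB to MG, against 0.707 in OV. The storage protein gene SESA4 stood at 108709 in MG, and EM6, a gene of late maturation, at 44833 in DS. Of the endosperm genes, AGL62 was at 1.53 to 5.36 from OV to MG, while IKU2 did not exceed 0.0197 in any stage. The anther genes MS2 and MYB80 did not exceed 1.38. A whole seed mixes seed coat, endosperm and embryo in proportions that change with age, so that fewer cells of a type and less RNA per cell cannot be told apart in any result below.

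**Figure D1:**
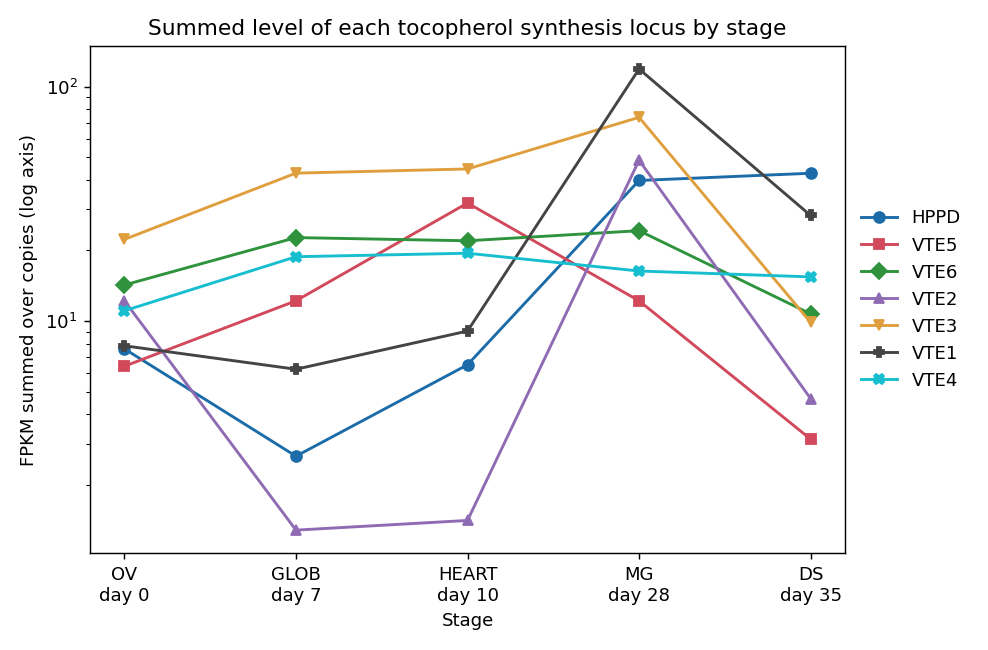
FPKM summed over the copies of each of the 7 loci (vertical log axis) at the 5 stages in order of age (horizontal axis), 1 authors' value per stage and no error bars. VTE1, VTE2 and HPPD stand far higher in MG than in HEART, VTE5 peaks in HEART, and VTE6 and VTE4 stay within the narrowest range.

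The 7 loci did not share 1 time course. Summed over copies, 4 loci had their highest value in MG (VTE6, VTE2, VTE3 and VTE1), 2 in HEART (VTE5 and VTE4) and 1 in DS (HPPD). Among the 17417 Arabidopsis loci that reach 1 FPKM, 20.1% were highest in MG, 13.3% in HEART and 31.2% in DS, while 17.8% peaked in OV and 17.5% in GLOB, where 0 of the 7 did. With the stages rescaled to equal sums of FPKM (a common sum), VTE6 and VTE3 were highest in HEART instead, which left 2 loci in MG and 4 in HEART. VTE3 had the highest level of the 7 in OV, GLOB and HEART, VTE1 in MG and HPPD in DS. The FPKM of all 19 copies summed to 81.7 at OV, 107 at GLOB, 135 at HEART, 334 at MG and 115 at DS. As a share of the FPKM of all genes, the members made up 0.0183% at OV, 0.0167% at GLOB, 0.0227% at HEART, 0.0221% at MG and 0.0126% at DS, so that HEART and MG were alike on that measure.

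Formation of the head group begins with HPPD, which turns 4-hydroxyphenylpyruvate into homogentisate. Its 3 copies summed to 7.61 FPKM at OV, 2.65 at GLOB, 6.51 at HEART, 39.8 at MG and 42.7 at DS. The locus was thus lowest in GLOB and highest in MG and DS. On the log2(FPKM + 1) scale MG was 2.44 higher than HEART, which is 6.11-fold in FPKM, and DS differed from MG by 0.10. These differences were 1.18 and 0.80 on a common sum. HEART was 1.04 above GLOB, a step that is 0.90 with quantile normalization.

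Among the HPPD copies, BnaN15g04370 on chromosome 15 (C) had 1.81, 0.362, 2.37, 23.6 and 20.8 FPKM from OV to DS. BnaN10g04510 on chromosome 10 (A) had 3.01, 1.25, 3.13, 12.01 and 20.5 FPKM over the same stages. Both were thus high in the last 2 stages, the C copy already at its highest in MG and the A copy in DS. The remaining copy, BnaN18g51650, stayed between 1.01 and 4.20 FPKM, and its share of the locus was 3.22% in DS and 36.7% in OV.

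Supply of the tail rests on VTE5, a phytol kinase, and VTE6, which phosphorylates phytyl phosphate to the diphosphate. VTE5 summed to 6.42 FPKM at OV, 12.2 at GLOB, 31.9 at HEART, 12.2 at MG and 3.13 at DS. As deposited, VTE5 alone among the 7 loci was called lower in MG than in HEART, by a log2(FPKM + 1) difference of -1.32, and it was lower again in DS than in MG, by -1.67, or -0.997, just short of the limit, on a common sum. Its course follows the copy BnaN10g27240 on chromosome 10 (A), with 6.33, 11.2, 28.5, 6.92 and 2.27 FPKM from OV to DS. The C copy BnaN13g01790, which did not reach 10 FPKM and is named after its values were seen, was highest in MG instead, at 4.29 FPKM against 1.02 FPKM in HEART. Its share of the VTE5 sum was 35.2% in MG and 3.18% in HEART. Levels of the third copy, BnaN03g01490, lay between 0.0246 and 2.35 FPKM.

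VTE6 had a rather flat profile as deposited, with 14.3 FPKM at OV, 22.7 at GLOB, 22.0 at HEART, 24.3 at MG and 10.7 at DS. Its highest sum was 2.26 times its lowest, and 19.2% of the loci reaching 1 FPKM had a smaller range over the 5 stages on the log2(FPKM + 1) scale. The C copy BnaN16g44320 had 7.68, 13.1, 13.3, 15.9 and 6.87 FPKM. The A copy BnaN07g36830 ran below it in all 5 stages, between 3.86 and 9.64 FPKM. The sum in DS was called lower than in MG, by -1.11, but not on a common sum, where the difference is -0.41. On that scaling VTE6 was instead lower in MG than in HEART, by -1.15, against 0.14 as deposited. It was also lower there in DS than in OV, by -1.35, against -0.38 as deposited.

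VTE2, homogentisate phytyltransferase, joins head and tail and so makes the first intermediate specific to tocopherols. It was the most variable of the 7 loci, with 12.2 FPKM at OV, 1.28 at GLOB, 1.41 at HEART, 48.5 at MG and 4.67 at DS. The level was thus substantial in ovules, near 1 FPKM in both early seed stages, highest in MG and low again in DS. Its difference was -2.53 for GLOB against OV, 4.36 for MG against HEART (34.4-fold in FPKM) and -3.13 for DS against MG. These 3 differences kept their direction and size of at least 1 under every scaling and pseudocount tried. The fold of MG over HEART rests on a low HEART value.

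Only 2 of the 4 VTE2 copies had any signal. BnaN17g02650 on chromosome 17 (C) had 3.77, 0.144, 0.313, 33.2 and 3.64 FPKM from OV to DS, and BnaN07g01450 on chromosome 7 (A) had 8.43, 1.14, 1.10, 15.3 and 1.03 FPKM. The 2 copies followed the same course, but the C copy was at 0.447 times the A copy in OV, 2.17 times in MG and 3.53 times in DS. BnaN09g11020 and BnaN19g12800 were listed at 0 in all 5 stages. BnaN09g11020 carries the same Darmor identifier as BnaN07g01450, and no source says how reads that fit several near-identical copies were divided, so the level of a single copy is uncertain here and throughout.

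VTE3 methylates the joined product. Its single gene, BnaN16g23720 on chromosome 16 (C), had 22.3 FPKM at OV, 42.8 at GLOB, 44.6 at HEART, 74.0 at MG and 9.87 at DS. MG was 1.66 times HEART in FPKM, a log2(FPKM + 1) difference of 0.72 that did not reach the limit and is -0.60 on a common sum. DS lay below MG by -2.79, and below OV by -1.10.

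VTE1, tocopherol cyclase, closes the ring that makes the product a tocopherol. Its sum was 7.84 FPKM at OV, 6.23 at GLOB, 9.06 at HEART, 119 at MG and 28.2 at DS. The first 3 stages thus differed little and MG stood 13.1-fold above HEART, a log2(FPKM + 1) difference of 3.58 that is 2.28 on a common sum. DS was called lower than MG, by -2.04, yet was above OV by 1.72 (0.77 on a common sum). The A copy BnaN03g53260 had 3.91, 3.20, 5.01, 65.8 and 13.4 FPKM from OV to DS, and the C copy BnaN17g51280 had 3.93, 3.03, 4.05, 53.2 and 14.8 FPKM. The copies moved in parallel, with the C copy between 44.7% and 52.6% of the locus in every stage.

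VTE4, gamma-tocopherol methyltransferase, adds the last methyl group and turns gamma- into alpha-tocopherol. Summed over copies it was the least variable locus of the 7, with 11.1 FPKM at OV, 18.8 at GLOB, 19.5 at HEART, 16.3 at MG and 15.4 at DS, and 7.45% of loci reaching 1 FPKM had a smaller range. On a common sum VTE4 was lower in MG than in HEART, by -1.50, against -0.24 as deposited.

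**Figure D2:**
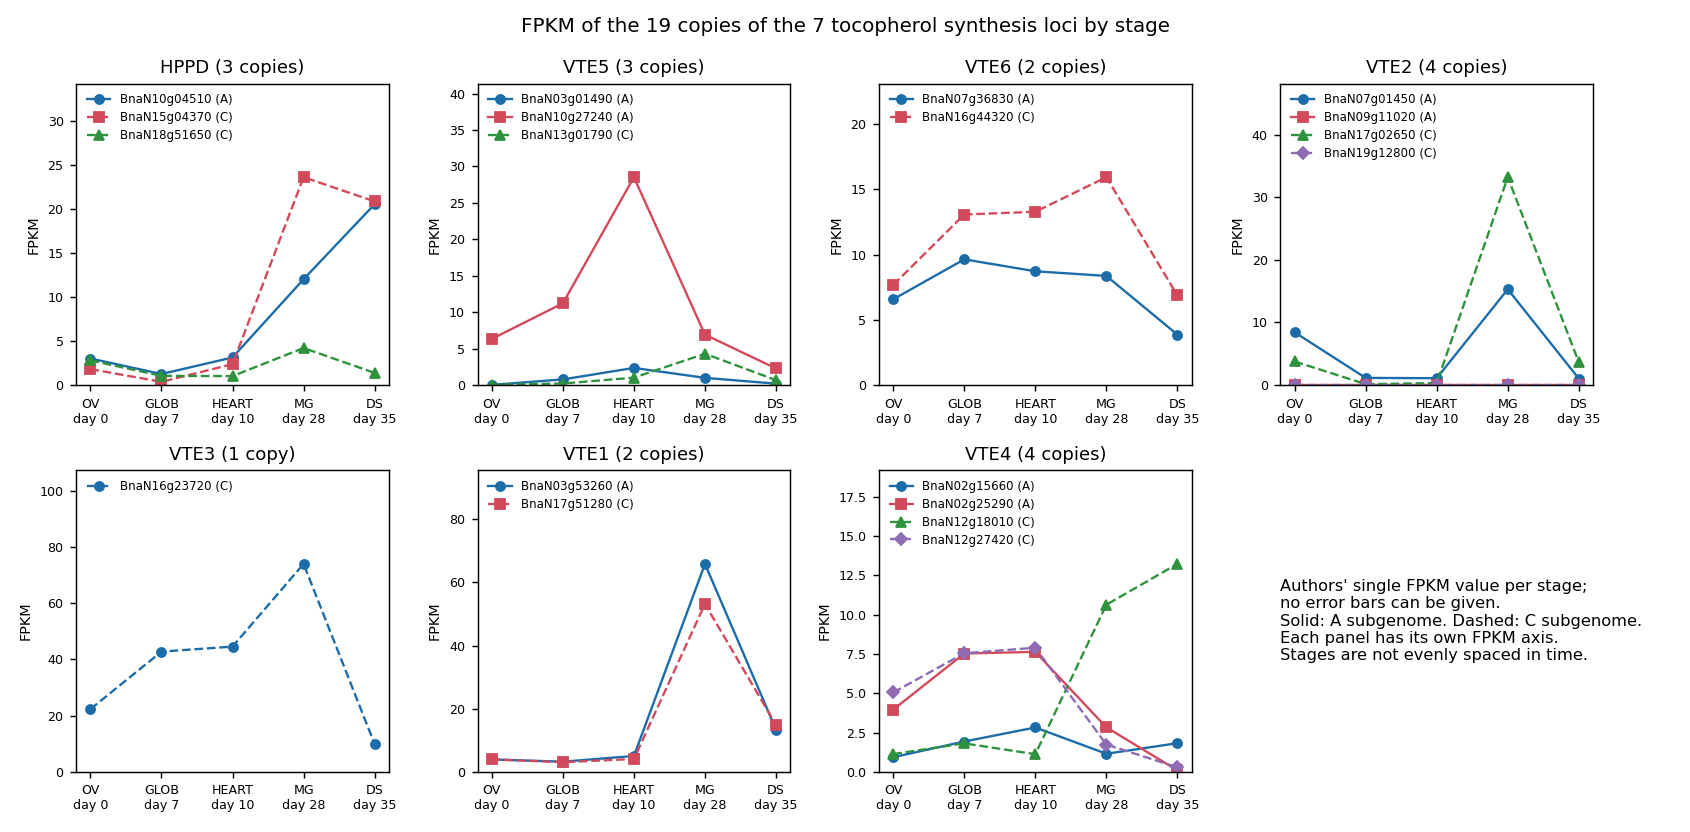
FPKM of each of the 19 copies (vertical axis, scaled separately in each panel) at the 5 stages (horizontal axis), with A copies as solid and C copies as dashed lines and no error bars. The VTE1 and VTE2 copies with signal are high together in MG, whereas in VTE4 the copy BnaN12g18010 is high in MG and DS, where BnaN02g25290 and BnaN12g27420 are low.

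The VTE4 sum, steady as deposited, was made up mainly of different copies up to HEART and from MG on. BnaN12g18010 on chromosome 12 (C), the only copy to reach 10 FPKM, had 1.13, 1.81, 1.12, 10.6 and 13.2 FPKM from OV to DS. The other 3 are named here after their values were seen. BnaN12g27420 on the same chromosome had 5.05, 7.55, 7.90, 1.73 and 0.286 FPKM, and BnaN02g25290 on chromosome 2 (A) had 3.96, 7.53, 7.63, 2.83 and 0.0927 FPKM. These 2 copies were at nearly equal levels in OV, GLOB and HEART and lower in MG and DS, whereas BnaN12g18010 was higher there. BnaN02g15660, on chromosome 2 and with the same Darmor identifier as BnaN12g18010, stayed between 0.929 and 2.82 FPKM. BnaN12g18010 differed by 2.46 on the log2(FPKM + 1) scale for MG against HEART, BnaN12g27420 by -1.70 and BnaN02g25290 by -1.17.

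As shares of the VTE4 sum, which a rescaling of whole stages leaves as they are, BnaN12g18010 made up 65.1% in MG and 85.8% in DS, against 5.75% in HEART. BnaN12g27420 made up 10.6% in MG and 40.6% in HEART, and BnaN02g25290 made up 17.3% in MG and 39.2% in HEART. A shift of this kind was set against all 9121 Arabidopsis loci with 2 or more copies and a sum of at least 5 FPKM in both MG and HEART, a comparison added after the values were seen. A copy's share differed by at least 50 percentage points in 3.25% of them. In VTE4 the largest shift was 59.3 points, larger than in 98.2% of these loci, whose median was 11.9 points. It was 32.7 points in VTE5, 22.9 in HPPD, 5.21 in VTE6 and 0.0534 in VTE1. VTE2, at 1.41 FPKM in HEART, was below the minimum. The leading copy differed between MG and HEART in VTE4 and HPPD, 2 of the 5 loci that could be read, and in 38.5% of all loci.

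**Figure D3:**
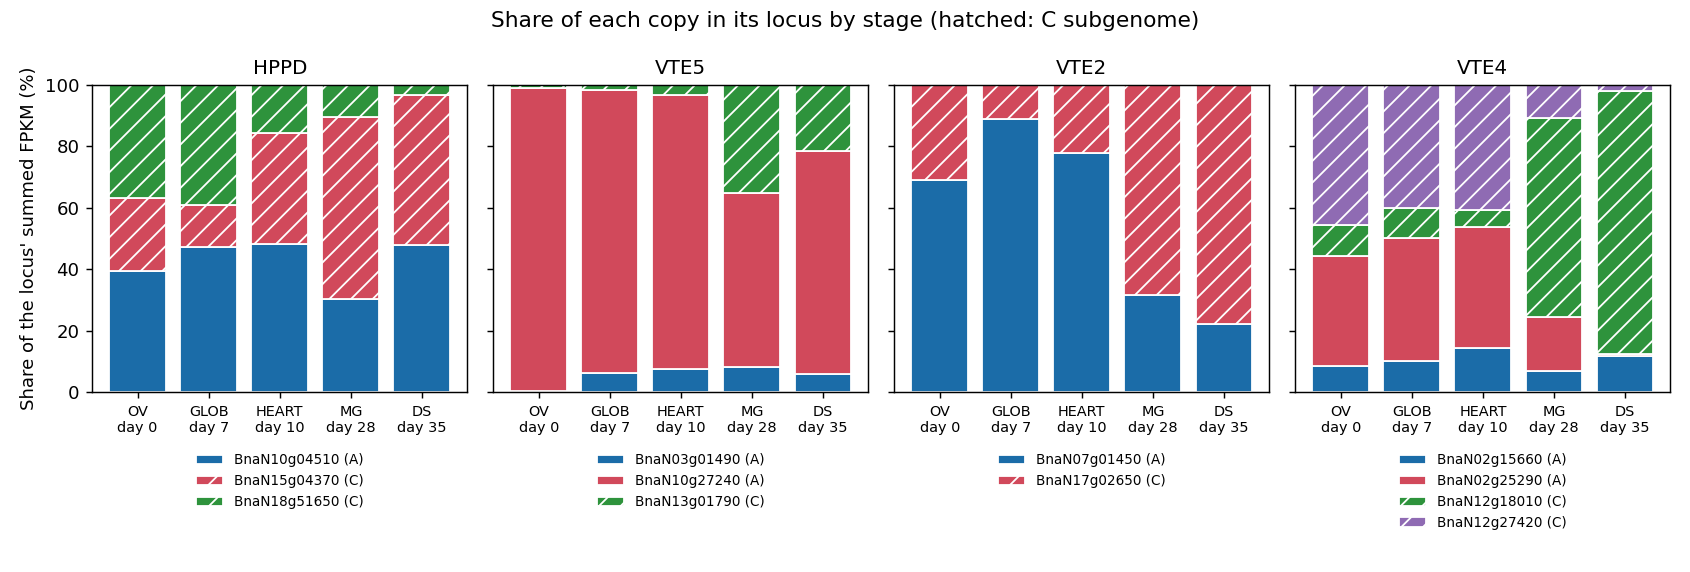
Share of each copy in the summed FPKM of its locus, in percent (vertical axis), at the 5 stages (horizontal axis) for HPPD, VTE5, VTE2 and VTE4, with C copies hatched. In VTE4 the copy BnaN12g18010 holds 65.1% in MG and 85.8% in DS, against 5.75% in HEART, and in VTE2 the C copy leads in MG and DS and the A copy in the 3 earlier stages. The VTE2 shares in GLOB and HEART rest on sums of 1.28 and 1.41 FPKM, below the minimum of 5 FPKM used in the text to compare shares.

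Over all member copies, the C copies took 59.4% of the FPKM sum at OV, 65.6% at GLOB, 56.1% at HEART, 66.1% at MG and 62.4% at DS. VTE3, whose single copy is on C, is part of these shares. Read from the letter of the Darmor identifier instead, the C share was 51.9% at OV, 57.6% at GLOB, 51.1% at HEART, 62.7% at MG and 50.8% at DS. In MG the C copy was 2.17 times the A copy in VTE2, 1.90 times in VTE6, 1.96 times in HPPD (BnaN15g04370 over BnaN10g04510) and 0.807 times in VTE1. It was 4.36 times in VTE5 (BnaN13g01790 over BnaN03g01490, which share a Darmor identifier). That pair leaves out the leading VTE5 copy, BnaN10g27240 on A, at 6.92 FPKM in MG. The C share of the whole VTE5 sum was 35.2% in MG. In VTE4, BnaN12g18010 was 9.27 times BnaN02g15660, and BnaN12g27420 was 0.613 times BnaN02g25290.

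Counted copy by copy, 17 of the 19 members reached 1 FPKM in a stage and 2 were listed at 0. Because a copy can reach that limit through the stage in which it is high, the counts below describe these 17 copies only and support no comparison with other genes. For MG against HEART, 9 copies were higher (17.4% of all 49417 genes that reached 1 FPKM) and 3 were lower (22.4% of all genes), with a median difference of 1.37 against -0.09 over all genes. With common sums 6 were higher and 7 lower, so that the balance depended on the scaling. Shares over all genes or loci were taken only on the values as deposited. Counts of members in other settings, here and below, are not to be set against those shares. The common sum shifts the median of all genes by -0.96 for this comparison. Relative to that median, a setting chosen after the data were seen, 9 were higher and 3 lower. As deposited, the 9 higher copies were the 3 of HPPD, both expressed copies of VTE2, both of VTE1, BnaN13g01790 of VTE5 and BnaN12g18010 of VTE4. Of these, 3 no longer reached the limit on a common sum, BnaN10g04510 (0.50) and BnaN18g51650 (0.45) of HPPD and BnaN13g01790 (0.47). For DS against MG, 0 copies were higher (19% of all genes) and 11 were lower (21.3%), with a median of -1.13 against -0.01. On a common sum, 1 was higher and 7 were lower.

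In the earlier steps fewer copies differed. For GLOB against OV, 0 copies were higher (15.8% of all genes) and 3 were lower (11%), both expressed copies of VTE2 and BnaN15g04370 of HPPD, with a median difference of 0.40 against 0.00. For HEART against GLOB, 2 were higher (4.89%), BnaN10g27240 of VTE5 and BnaN15g04370, and 0 were lower (2.5%), with a median of 0.20 against 0.01. Between the end points, DS against OV, 5 were higher (23.1%) and 5 lower (25.5%). The higher ones were BnaN15g04370 and BnaN10g04510 of HPPD, both VTE1 copies and BnaN12g18010. The numbers on a common sum were 3 higher and 8 lower, and the VTE1 copies were at 0.67 and 0.80. Taken relative to the common-sum median, 6 copies were higher and 5 lower.

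Summed over copies, 3 of the 7 loci were higher in MG than in HEART (18.2% of 17417 loci), HPPD, VTE2 and VTE1, and 1 was lower (23% of loci), VTE5. On a common sum the same 3 were higher, and VTE5, VTE4 and VTE6 were lower. Taken relative to the median of all genes on that scaling, 3 loci were higher and 1 lower. For DS against MG, 0 loci were higher (20.4%) and 5 were lower (23.3%), with HPPD and VTE4 as the exceptions, and 3 were lower on a common sum. For GLOB against OV 0 were higher (17.9%) and 2 lower (11.7%), HPPD and VTE2. HPPD and VTE5 were higher in HEART than in GLOB (5.31%), and 0 loci were lower (2.54%). In DS against OV, HPPD and VTE1 were higher (25.4%), and VTE2 and VTE3 lower (25.3%), whereas 1 was higher and 4 were lower on a common sum. Against the common-sum median, 2 were higher and 2 lower.

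The steps around the pathway were described with a list of 31 Arabidopsis loci, written from general knowledge. The table has genes for 30 of them, 115 in all. For MG against HEART, 6 of the 30 loci were higher (18.2% of all loci) and 7 lower (23%), close to the shares over all loci. For DS against MG, 3 were higher (20.4% of all loci) and 16 lower (23.3%). The counts by group below are to be read against these shares, which hold for the values as deposited. On a common sum, 2 were higher and 16 lower for MG against HEART, and 3 and 8 for DS against MG. That scaling shifts the median of all genes by -0.96 and 0.24 in these comparisons. No share over all loci was taken on it, so common-sum counts, here and by group, are not to be set against the shares above.

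In the tyrosine and homogentisate group, 3 of 7 loci were higher (18.2% of all loci) and 2 lower (23%) in MG than in HEART, and 0 were higher and 3 lower on a common sum. TAT7, a tyrosine aminotransferase that feeds HPPD, was at 15.1 FPKM in MG and 5.16 in HEART, a difference of 1.38 (0.17 on a common sum). HGO, the dioxygenase that opens homogentisate for breakdown and so uses the product of HPPD, was lower, at 18.0 FPKM in MG and 45.5 in HEART, a difference of -1.29. The following enzymes of that breakdown differed in direction. GSTZ1, maleylacetoacetate isomerase, was at 238 FPKM in MG and 56.4 in HEART (a difference of 2.06, or 0.72 on a common sum), and FAH, fumarylacetoacetate hydrolase, at 54.8 in MG and 115 in HEART (-1.06, or -0.98 with median-of-ratios rescaling).

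HST competes with VTE2 for homogentisate in plastoquinone synthesis. It was at 15.9 FPKM in MG and 8.44 in HEART, a difference of 0.84 where VTE2 had 4.36, and it is -0.40 on a common sum. In DS it was at 1.18 FPKM, a difference of -2.95 from MG. Of the solanesyl diphosphate synthases that supply HST, SPS1 was lower in DS than in MG (2.96 against 8.20 FPKM, a difference of -1.22 that is -0.58 on a common sum) and SPS2 higher (6.89 against 2.43 FPKM).

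Among loci of phytol and chlorophyll, 2 of 8 were higher (18.2% of all loci) and 1 lower (23%) in MG than in HEART, and 0 were higher (20.4%) and 5 lower (23.3%) in DS than in MG. Of the 8, 4 were lower in MG than in HEART and 3 in DS than in MG on a common sum. GGR, the reductase that makes the phytyl chain, had 164 FPKM at OV, 106 at GLOB, 90.2 at HEART, 67.0 at MG and 6.89 at DS. As deposited, only DS against MG, at -3.11, reached the limit among the steps from stage to stage. On a common sum GGR was also lower in MG than in HEART, by -1.75, against -0.42 as deposited. PPH, pheophytinase, which frees phytol during chlorophyll breakdown, was at 75.6 FPKM in MG and 10.3 in HEART, a difference of 2.76. CLH2, a chlorophyllase, was at 21.4 FPKM in MG and 1.16 in HEART. CLH1, the other chlorophyllase, is named after its values were seen and was the 1 lower locus. It had 46.4 FPKM in OV and 1.92 in HEART, and was listed at 0 in MG. In DS, PPH stood at 57.5 FPKM and CLH2 at 0.273 FPKM.

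Plastid isoprenoid supply had 0 of 8 loci higher (18.2% of all loci) and 3 lower (23%) in MG than in HEART, and 1 higher (20.4%) and 6 lower (23.3%) in DS than in MG. Common sums gave 7 lower in MG than in HEART and 3 in DS than in MG. DXS, the first enzyme of the plastid isoprenoid pathway, was at 13.1 FPKM in MG and 35.7 in HEART. GGPPS11, which makes the precursor that GGR reduces, was at 17.7 FPKM in MG and 48.4 in HEART. Among 4 plastoglobule loci, FBN4, a fibrillin, was at 207 FPKM in MG and 40.8 in HEART (a difference of 2.32, or 0.98 on a common sum), and NDC1, a quinone reductase, was at 10.5 in MG and 29.8 in HEART.

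**Figure D4:**
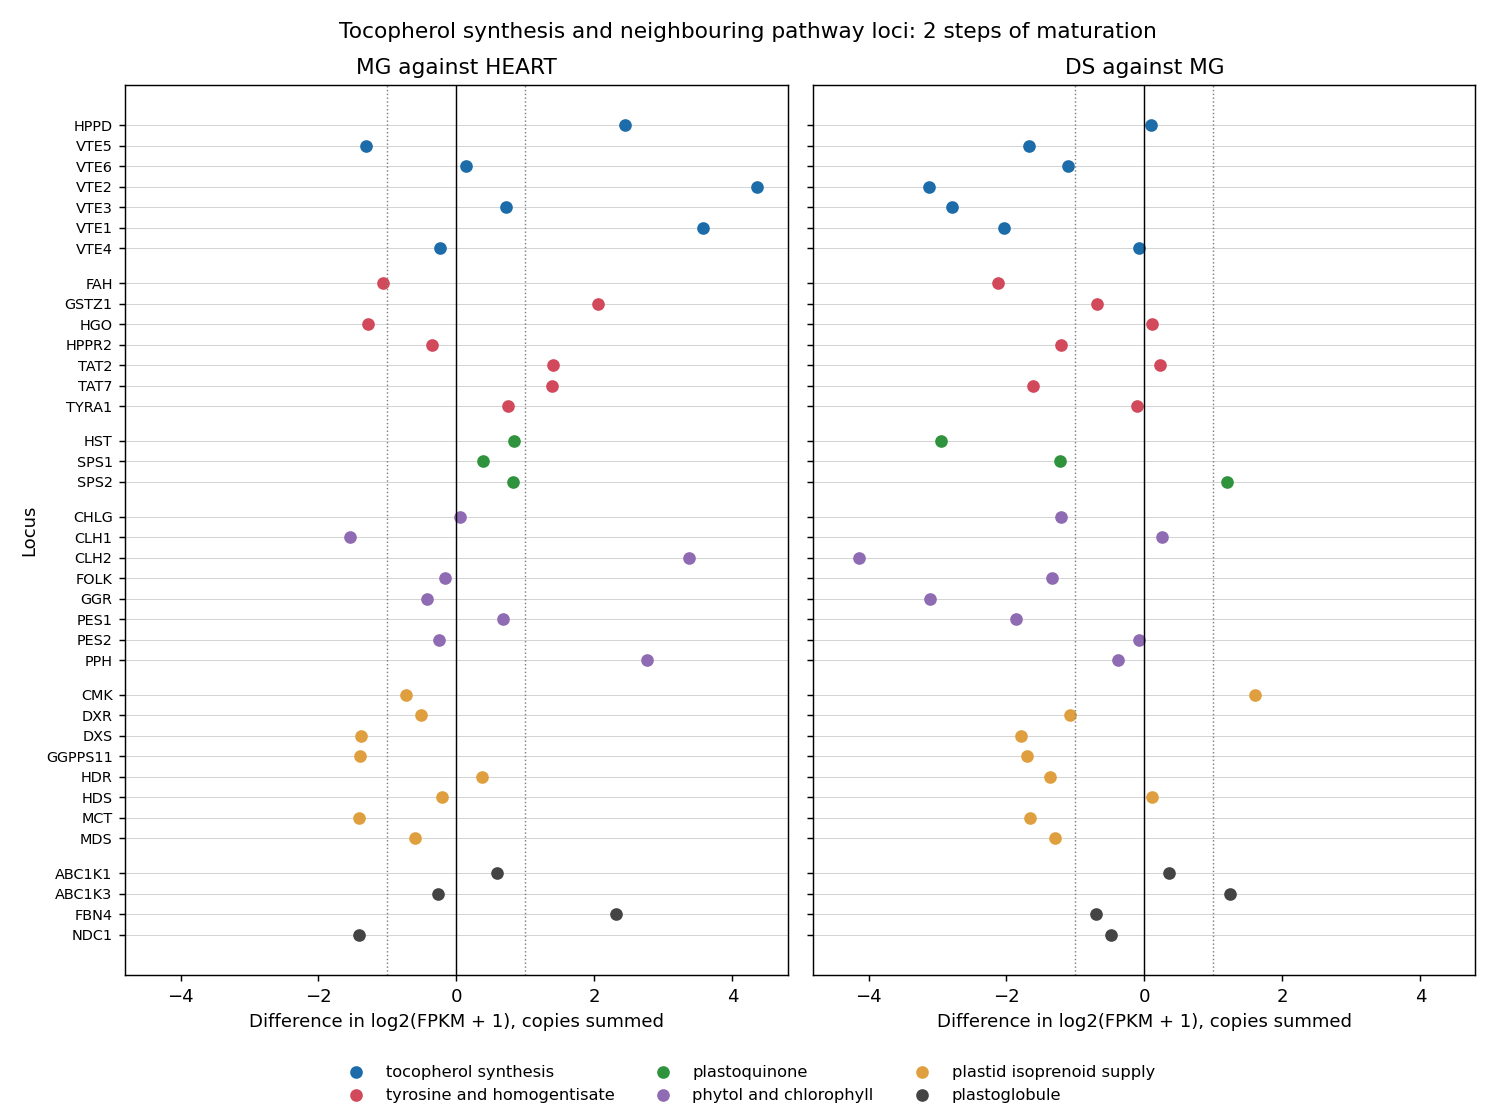
Difference in log2(FPKM + 1) of loci summed over copies (horizontal axis) for MG against HEART and for DS against MG, with 1 row per locus, the 7 tocopherol synthesis loci at the top and 30 other pathway loci by group below. Dotted lines mark a difference of 1 in either direction. VTE2 and VTE1 lie farthest to the right for MG against HEART, at 4.36 and 3.58, and 5 of the 7 lie left of -1 for DS against MG.

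The loci with the profile most like each member were sought among 12396 others that reach 10 FPKM, by the Euclidean distance of log2(FPKM + 1) values centred on their mean over the 5 stages. The nearest to VTE2 was AT1G14950 (distance 0.50), with 12.6, 2.33, 2.47, 51.0 and 6.64 FPKM from OV to DS, so that it too was high in OV and MG and low between. For VTE3 the nearest were AT5G22875 and AT4G11820 (both 0.15), and for VTE6 they were AT1G45050 (0.10) and AT2G43810 (0.14). HPPD was nearest to AT4G18150 (0.44), VTE5 to AT4G24230 (0.47), VTE1 to AT3G48270 (0.33) and VTE4 to AT4G33700 (0.17). AT3G48270 had 0.0312, 0.0681, 0.0908, 14.0 and 2.49 FPKM from OV to DS. Its early values were thus near 0, where VTE1 had at least 6.23 FPKM, and the nearness holds on the log2(FPKM + 1) scale only. No member was among the 2 nearest of another. The closest members were VTE6 and VTE4, at a distance of 0.78, followed by VTE3 and VTE6 at 1.22. With 5 stages and so many loci, close profiles are to be found for nearly any gene.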

How the data were processed

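RNA-seq of 14 libraries in 5 stages was deposited as 1 table, in which the authors give FPKM, 1 value per gene and stage; how libraries were combined and scaled is not given in the sources used here. Per the labels, reads of 100 bases were trimmed with Trimmomatic (version 0.36), aligned to the DH12075 genome with HiSat2 and quantified with Cuffquant and Cuffdiff; the submitters' processing notes name TopHat2 and Cuffnorm as well. The table holds 2 further columns that match no sample described here and were not used.

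The table gives no gene symbols, and those used here come from general knowledge of Arabidopsis. Members, lists and tests were chosen with earlier results of these data known. Genes with at least 1 FPKM in any stage were considered, stages were compared on log2(FPKM + 1), and a difference of at least 1 counted. The planned fallback to a description was used because no library values were at hand. Chromosome numbers 1 to 10 of the DH12075 identifiers were read as A and 11 to 19 as C. All members were counted, copies reaching 10 FPKM are given in every stage, and of the other pathway loci HST, HGO, GGR, TAT7 and up to 2 more per group with the largest difference in MG against HEART or DS against MG are named. CLH1 was added after the values were seen. Counting was run on simulated data, built from the OV values with large changes set in genes of at least 10 FPKM. No changes were set in lower genes or in whole stages, so the run checks the code only. Python 3.11.15, numpy 2.4.6 and pandas 2.3.3 were used. Gene coordinates and sequences were not used here.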

Additional observations from a re-analysis of the deposited data

How the results depend on the processing

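No paired analysis was possible because each stage has a single value and the libraries have none of their own, so the replicate block and the leaving out of libraries gave no value either. Median-of-ratios rescaling changed no call of the 7 loci, and neither it nor leaving out the filter, which bears on counts of copies, changed a member count by more than 1.5 times. Each stage rescaled to a common sum shifted the median of all genes by -0.96 for MG against HEART, -0.76 for DS against OV, -0.34 for GLOB against OV and 0.24 for DS against MG. With a common sum, 5 copies were lower in GLOB against OV (3 as deposited), 4 higher in HEART against GLOB (2), 6 higher and 7 lower in MG against HEART (9 and 3), 1 higher and 7 lower in DS against MG (0 and 11), and 3 higher and 8 lower in DS against OV (5 and 5). VTE6 changed direction for MG against HEART, to -1.15, as did its copy BnaN16g44320, to -1.004, and VTE4 came to -1.50. For DS against MG, VTE5 came to -0.997 and VTE6 to -0.41, and for DS against OV, VTE5 to -1.75, VTE6 to -1.35 and VTE1 to 0.77. Of the other pathway loci, 2 were higher and 16 lower in MG against HEART, and 8 lower in DS against MG. Relative to the common-sum median, a setting chosen after seeing the data, 1 copy was higher in GLOB against OV, 1 higher and 7 lower in DS against MG, VTE6 was at -0.65 there and 9 other pathway loci were lower. With a pseudocount of 0.1, 1 copy was higher and 5 lower in GLOB against OV, 5 higher in HEART against GLOB and 5 lower in MG against HEART, and VTE5 came to -1.01 in DS against OV. With a mean FPKM of at least 5, which 11 copies have, 1 was lower in MG against HEART, 7 in DS against MG and 3 in DS against OV. Quantile normalization gave 0.90 for HPPD in HEART against GLOB and -0.99 for VTE6 in DS against MG. With it, 8 copies were lower in DS against MG (11 as deposited) and 2 in GLOB against OV (3 as deposited). The Darmor letter gave a C share of 50.8% in DS. Single copies and named pathway loci were also recomputed after seeing the data, and apart from BnaN16g44320 their calls stayed 509 times, were lost 24 times and were gained 31 times. Shares over all genes or loci were taken only on the values as deposited, so counts in the other settings have none beside them. Other causes were not tested, and depth is unknown.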
